A study of Mus musculus with 8 samples.

Results

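The intermediate filament proteins of different lineages were followed at the RNA level through 10 genes, chosen by name from the deposited gene tables: the simple-epithelial keratins *Krt7*, *Krt8*, *Krt18* and *Krt19*, the type III genes *Vim*, *Des* and *Gfap*, and the type IV genes *Nefl*, *Nefm* and *Ina*. All 10 were among the 26263 genes counted, and all 10 were among the 16399 genes that passed the filter on low counts. *Krt7* reached the filter's cutoff only in its NPC libraries, so it was tested only because it was high there. Its levels are therefore given as a description with no test. Over all genes, 2585 of 16399 passed in this way and 2046 of these were called higher in NPCs.

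Intermediate filaments are rope-like polymers of the cytoskeleton, and which proteins build them is a classic sign of a cell's lineage. Keratin filaments of epithelia, including trophoblast, are built from pairs of a type I and a type II keratin, whereas type III proteins such as vimentin, desmin and GFAP can assemble on their own and mark mesenchymal or progenitor cells, muscle and astrocytes. In the nervous system, progenitors use vimentin and nestin, and neurons then build neurofilaments from neurofilament light and medium and alpha-internexin.

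RNA-seq was performed on mouse ESCs and on ES-derived NPCs at day 12 of *in vitro* corticogenesis, with 2 libraries in each of 4 groups. The B/J cells (line BJE2, genotype C57BL/6 x JF1) and the J/B cells (line JBE6, genotype JF1 x C57BL/6) are reciprocal hybrids, so the cross cannot be told apart from the cell line. Both lines are male and came from blastocysts. ESCs were grown on gelatin in a medium with LIF, BMP4 and a GSK3-β inhibitor, and the NPCs were made from the same 2 lines on Matrigel in defined medium with a BMP pathway inhibitor. Nothing states that the replicates came from separate cultures, so the p-values measure only the spread between these libraries, which may be technical.

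Between 22537138 and 32706015 reads were counted on genes per library, so 1 count was worth 0.0306 to 0.0444 CPM, where CPM is a count divided by the library's total of reads on genes and scaled up. Pluripotency markers were lower in NPCs for 6 of 6 genes, and neural precursor markers were higher for 7 of 8 (3 of them passing the filter only through NPCs), the exception being *Pax6* (adjusted p = 0.061 from edgeR). Among 8 astrocyte markers, 4 were called higher and 2 lower, from *Slc1a2*, a glutamate transporter gene (mean 0.0459 CPM in ESCs and 50.4 CPM in NPCs), to the defining markers *Aqp4* and *S100b*, whose NPC means were 0.769 and 0.406 CPM. The 2 lower were *Aldh1l1*, a folate enzyme gene (mean 9.12 CPM in ESCs and 1.24 CPM in NPCs), and *Aldoc*, a glycolytic enzyme gene (log2 fold change of -0.55, with an edgeR adjusted p = 0.0147). ESC J/B replicate 1 stood apart, with a summed level of 10 fibroblast markers of 72.2 CPM against 10.7 to 15.1 CPM in the other ESC libraries. Results on the members are therefore also given without it. In bulk RNA, fewer cells of a type and less RNA per cell cannot be told apart.

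Of the 9 genes other than *Krt7*, 5 were higher in NPCs and 0 lower at an adjusted p below 0.05 (edgeR's quasi-likelihood test, Benjamini-Hochberg adjustment over all genes tested). With *Krt7* the count is 6 of 10. Over all genes 37.5% were called higher and 31.9% lower, so a rise was common among genes at large, and among the 13814 genes that reached the cutoff in ESCs 29.7% were called higher. The median log2 fold change was 2.10 over the 10 genes, *Krt7* included, and 0.17 over all genes tested. Without *Krt7*, the middle of the other 9 values was that of *Nefl*, at 1.41. The 6 were the 4 keratins, *Vim* and *Nefm*. At an unadjusted p below 0.05 *Nefl* was also higher, a mark reached by 11899 of the 16399 genes, and DESeq2 and limma-voom called 0 members lower. In the 5 called genes other than *Krt7*, every NPC library also lay above every ESC library, as in *Krt7*, which entered only through NPCs. This held for 35.3% of all genes on CPM normalized by TMM, the edgeR scaling that corrects for composition. TMM factors were 0.820 to 0.885 in ESCs and 1.14 to 1.21 in NPCs. The median change of all genes was 0.65 on library totals and 0.80 when the housekeeping genes *Gapdh*, *Gusb* and *Tbp* set the scale. The 5 calls other than *Krt7* held under both. Without ESC J/B replicate 1 the count was 6 higher, *Krt7* included, and 0 lower.

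**Figure D1:**
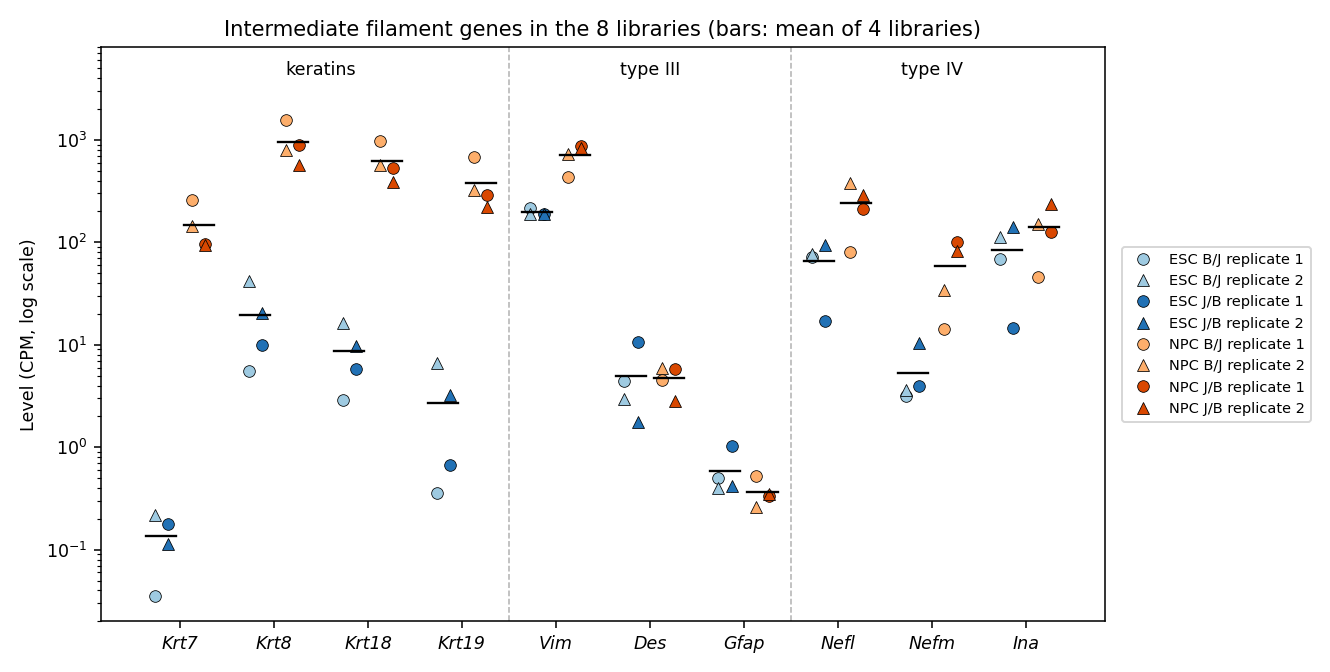
Level of each gene (CPM, log scale) in the 8 libraries, with ESCs in blue and NPCs in orange, circles for replicate 1, triangles for replicate 2 and bars for the mean of 4 libraries. The keratins, *Vim* and *Nefm* do not overlap between the stages, whereas *Des*, *Gfap*, *Nefl* and *Ina* do.

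The 4 keratins had the largest differences between the stages. *Krt8*, the type II keratin of simple epithelia, and *Krt18*, its usual type I partner, lie close together on chromosome 15, at 101905133 to 101912917 (minus strand) and 101936615 to 101940462 (plus strand) in GRCm39. *Krt7*, a type II keratin of glandular and trophoblast epithelia, lies on the same chromosome at 101308924 to 101328194 (plus strand). *Krt19*, a short type I keratin, lies on chromosome 11 at 100031636 to 100039491 (minus strand). The bases upstream of the annotated starts of the first 3 are shown because these chromosome 15 genes were all higher in NPCs. The windows are from RefSeq (build GRCm38.p6, 250 bases each, 5′ to 3′ on the strand of the gene).

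*Krt7*, chr15:101412153-101412402, plus strand: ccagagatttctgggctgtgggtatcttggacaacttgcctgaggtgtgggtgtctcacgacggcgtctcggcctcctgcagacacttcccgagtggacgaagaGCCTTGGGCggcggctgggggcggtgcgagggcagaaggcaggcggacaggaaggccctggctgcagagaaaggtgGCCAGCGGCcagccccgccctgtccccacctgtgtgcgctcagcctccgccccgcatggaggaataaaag
*Krt8*, chr15:102004343-102004592, minus strand: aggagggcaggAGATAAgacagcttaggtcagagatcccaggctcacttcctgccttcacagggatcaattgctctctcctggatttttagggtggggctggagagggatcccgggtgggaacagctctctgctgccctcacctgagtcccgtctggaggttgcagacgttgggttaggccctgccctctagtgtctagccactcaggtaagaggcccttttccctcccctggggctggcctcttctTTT
*Krt18*, chr15:102027966-102028215, plus strand: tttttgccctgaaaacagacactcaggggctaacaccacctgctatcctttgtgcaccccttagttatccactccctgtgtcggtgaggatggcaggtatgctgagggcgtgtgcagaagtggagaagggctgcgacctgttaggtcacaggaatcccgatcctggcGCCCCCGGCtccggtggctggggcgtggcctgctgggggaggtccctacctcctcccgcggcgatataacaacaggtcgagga

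Capitals mark matches on either strand to the AP-2 motif GCCNNNGGC, to the GATA motif AGATAA and, in the last 3 bases of the *Krt8* window, the part before the start of a pair of overlapping TATAAA matches. The search covered these bases and the 50 after the start. *Krt7* held 2 AP-2 matches, beginning 146 and 70 bases before the start, and *Krt18* held 1, beginning 83 bases before it. *Krt8* held none, and its AGATAA lay 239 bases before the start. In the whole set of 32851 RefSeq windows, GCCNNNGGC was found in 16.6%, AGATAA in 11.2% and TATAAA in 13.6%. The AP-1 motif TGANTCA, found in 7.81%, was in none of the 7 members with a window. Of these, *Vim* (20 bases before the start) and *Des* (77 bases before it) also held an AP-2 match, and *Vim* a TATAAA beginning 32 bases before the start. *Krt19*, *Nefl* and *Nefm* had no window.

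*Krt8* was read at 5.52 and 42.4 CPM in B/J ESCs (replicates 1 and 2) and at 10.03 and 20.6 CPM in J/B ESCs. In NPCs it was read at 1557 and 796 CPM in B/J and at 894 and 568 CPM in J/B. The lowest NPC library was thus far above the highest ESC library, although the ESC replicates themselves differed several-fold. The mean went from 19.6 ± 16.4 CPM to 954 ± 424 CPM (SD, n = 4 libraries each), and the log2 fold change was 5.14 (standard error 0.665, adjusted p = 3.26e-04 from edgeR).

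*Krt18* was read at 2.88, 16.3, 5.81 and 9.69 CPM in ESCs (B/J replicates 1 and 2, then J/B replicates 1 and 2) and at 985, 575, 535 and 392 CPM in NPCs in the same order. Its ESC libraries ranked as those of *Krt8* did. Its log2 fold change was 5.66 (standard error 0.562, adjusted p = 9.45e-05 from edgeR).

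*Krt19* was read at 0.356, 6.57, 0.666 and 3.21 CPM in ESCs and at 679, 321, 289 and 222 CPM in NPCs. It was the most variable of the keratins in ESCs, where both libraries numbered 1 were low and both numbered 2 were high. Its log2 fold change was 6.64 (standard error 0.856, adjusted p = 3.21e-04 from edgeR).

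*Krt7* was close to the detection limit in ESCs, with 1, 6, 4 and 3 counts, or 0.0356, 0.219, 0.177 and 0.113 CPM. In NPCs it was read at 259, 145, 96.2 and 93.3 CPM. The mean CPM of NPCs was 1088 times that of ESCs, and the log2 fold change was 9.49 (standard error 0.414). No p is given, since *Krt7* entered the test only through its NPC libraries.

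ESC B/J replicate 2 held the highest ESC level of each of the 4 keratins. Without it, the log2 fold changes were 10.35 for *Krt7*, 6.18 for *Krt8*, 6.51 for *Krt18* and 8.25 for *Krt19*. Without ESC J/B replicate 2, that of *Krt19* was 7.40. Without ESC J/B replicate 1 they were 9.68, 4.94, 5.52 and 6.30, in the order of the genes above. For *Krt8*, *Krt18* and *Krt19*, all of these were called by edgeR.

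Genes outside the members that make or hold keratin filaments were counted as well. Of 23 other keratins, 9 passed the filter, 6 were called higher in NPCs and 1 lower. These 6, and *Krt16*, which was not called, had reached the filter's cutoff only in NPCs. The filter had thus selected them for a high level in NPCs, as it had *Krt7*. Of the 2 that reached it in ESCs, *Krt17* was called lower and *Krt10* was not called. The largest fitted differences were those of *Krt15*, a basal-layer keratin that had no count in any ESC library and was at least 269-fold higher with TMM factors (floor of 3 counts over the ESC group), of *Krt5*, another basal keratin (log2 fold change 7.71), and of *Krt6a*, which had no count in ESCs and whose bound was only 13.9-fold. Their means in NPCs were 11.2, 19.7 and 0.556 CPM, and *Krt17* fell by 3.54 on the log2 scale. Of 13 genes for desmosomes and filament linkers, 8 were called higher and 5 were not called. They were led by *Dsc2*, a desmosomal cadherin (6.05), *Pkp1*, a desmosomal plaque protein that passed only through NPCs (4.72), and *Dsp*, which ties keratin filaments to desmosomes (3.29, from a mean of 29.5 to 418 CPM). Of 4 filament chaperones and turnover factors, 1 was called, the small heat shock protein *Cryab* (5.12).

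Trophoblast markers moved with the keratins between the stages. The summed level of 10 trophoblast markers was 61.7 to 145 CPM in ESCs and 581 to 1433 CPM in NPCs, with 8 of 10 called higher and 2 not called. *Tpbpa*, *Pappa2* and *Prl3d1*, markers of differentiated trophoblast, had no count in any ESC library, and these 3 and *Elf5* passed the filter only through NPCs. Within NPCs the sum was 1433, 833, 738 and 581 CPM in B/J replicates 1 and 2 and J/B replicates 1 and 2, and the summed level of the 4 keratins, at 3479, 1837, 1813 and 1276 CPM, had the same order over these 4 libraries. In ESCs the orders differed, with keratin sums of 8.79, 65.4, 16.7 and 33.6 CPM beside trophoblast sums of 93.5, 139.5, 61.7 and 145 CPM. The 8 surface epithelium markers, which include *Krt5* and *Krt14* of the list of other keratins, gave 296 to 824 CPM in ESCs and 357 to 655 CPM in NPCs, with 3 called higher, all 3 passing only through NPCs, and 1 lower. Endoderm markers, 6 of 7 tested called higher (2 of these, *Foxa2* and *Ttr*, passing only through NPCs) and 1 lower, summed to 11.4 to 12.6 CPM in ESCs. In NPCs they summed to 42.4, 56.3, 134 and 119 CPM in the library order above, lowest where the keratin sum was highest. The part of these cell types in the keratin levels was not tested.

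*Vim*, on chromosome 2 at 13578738 to 13587639 (plus strand, GRCm39), is the filament gene of mesenchymal and progenitor cells. It was read at 215, 190.2, 188 and 189 CPM in ESCs and at 436, 725, 877 and 829 CPM in NPCs. The ESC libraries were close together, the NPC libraries lay above all of them, and NPC B/J replicate 1 was the lowest of these. The mean went from 196 ± 13.1 to 717 ± 197 CPM (SD, n = 4 each), and edgeR's log2 fold change was 1.36 (standard error 0.171, adjusted p = 2.67e-04). The change was 1.38 without ESC J/B replicate 1 and 2.01 after scaling to the housekeeping genes, where the median of all genes was 0.80.

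*Des*, the muscle filament gene on chromosome 1 at 75320511 to 75345223 (plus strand, GRCm39), was read at 4.45, 2.95, 10.6 and 1.77 CPM in ESCs and at 4.54, 5.94, 5.75 and 2.85 CPM in NPCs. The stages overlapped, and the highest library was ESC J/B replicate 1. The log2 fold change was -0.51 (standard error 0.563, adjusted p = 0.443 from edgeR). Its sign was not stable: leaving out ESC J/B replicate 1 gave 0.43, and the change was 0.16 after scaling to the housekeeping genes.

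*Gfap*, the astrocyte filament gene on chromosome 11 at 102778159 to 102791738 (minus strand, GRCm39), had few counts in both stages. It had 14, 11, 23 and 11 counts in ESCs (0.498, 0.401, 1.02 and 0.415 CPM) and 16, 7, 11 and 9 counts in NPCs (0.519, 0.263, 0.336 and 0.351 CPM). The ranges overlapped on CPM, whereas on TMM-normalized CPM each NPC library lay below each ESC library, as it did for 31.2% of all genes. The log2 fold change was -1.10 (standard error 0.547, adjusted p = 0.105 from edgeR), -0.68 when ESC J/B replicate 1 was left out (adjusted p = 0.354) and -0.47 with housekeeping scaling.

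Markers of the lineages in which these type III genes are best known were set beside them. Fibroblast markers were called higher for 9 of 10 genes, 4 of which passed only through NPCs, and summed to 956 to 2312 CPM in NPCs, so they were higher in NPCs as *Vim* was. Among NPCs, *Vim* was highest in J/B replicate 1, where this sum was lowest. Neural precursor markers summed to 146, 300.5, 348 and 614 CPM in NPCs (B/J replicates 1 and 2, then J/B). Their sum was lowest where *Vim* was lowest, but highest in J/B replicate 2, where *Vim* was not. Of 9 muscle markers tested, 6 were called higher (5 passing only through NPCs) and 2 lower, and the 10 summed to 3.03 to 22.8 CPM in ESCs and 42.7 to 194 CPM in NPCs, while *Des* was not called. The 8 astrocyte markers, of which 3 of the 4 called higher passed only through NPCs, summed to 312 to 577 CPM in ESCs and 442 to 828 CPM in NPCs. The part of these cell types in the levels of *Vim*, *Des* and *Gfap* was not tested.

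Of the neuronal genes, *Nefm* was called higher and *Nefl* and *Ina* were not, and the differences between these 3 genes were not tested. *Nefl* encodes the light and *Nefm* the medium neurofilament subunit, and the genes are neighbours on opposite strands of chromosome 14, at 68321268 to 68326544 (plus) and 68320039 to 68362305 (minus) in GRCm39. Their annotated exons share 1152 bases. Whether the authors' counting used strand is not stated in the sources read here, so reads from those bases cannot be assigned with certainty.

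*Nefm* was read at 3.17, 3.65, 3.95 and 10.4 CPM in ESCs and at 14.4, 34.6, 102 and 82.4 CPM in NPCs. Every NPC library lay above every ESC library, though NPC B/J replicate 1 only just exceeded ESC J/B replicate 2. The mean went from 5.30 ± 3.45 to 58.3 ± 40.6 CPM (SD, n = 4 each), and edgeR's log2 fold change was 2.79 (standard error 0.374, adjusted p = 3.92e-04). Without ESC J/B replicate 1 it was 2.53.

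*Nefl* was read at 71.6, 77.7, 17.1 and 95.1 CPM in ESCs and at 80.3, 377, 213 and 287 CPM in NPCs. ESC J/B replicate 1 was far below the other ESC libraries, and NPC B/J replicate 1 lay inside the ESC range. The log2 fold change was 1.41 (standard error 0.581, adjusted p = 0.0595 from edgeR), 1.04 without ESC J/B replicate 1 (adjusted p = 0.0945) and 2.24 without ESC J/B replicate 2 (adjusted p = 0.00741). Leaving out NPC B/J replicate 1 gave 1.76 (adjusted p = 0.0190), and leaving out NPC B/J replicate 2 gave 0.67 (adjusted p = 0.273). It was also called with DESeq2, library totals, housekeeping scaling and a replicate block over all groups. With a block within each stage it was not called (1.34, adjusted p = 0.0947 from edgeR). *Nefl* therefore lay on either side of the threshold depending on a single library, the scaling, the test or the block.

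*Ina*, which encodes alpha-internexin, lies on chromosome 19 at 47003069 to 47013770 (plus strand, GRCm39). It was read at 69.0, 113, 14.4 and 142 CPM in ESCs and at 45.5, 149.8, 127 and 238 CPM in NPCs. The stages overlapped widely, with ESC J/B replicate 1 the lowest of all libraries. The log2 fold change was 0.20 (standard error 0.646, adjusted p = 0.797 from edgeR). Leaving out ESC J/B replicate 1 gave -0.23 (adjusted p = 0.651), leaving out NPC B/J replicate 2 gave -0.34 (adjusted p = 0.685), and leaving out ESC J/B replicate 2 gave 1.39 (adjusted p = 0.0312).

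The other cytoplasmic intermediate filament genes split as well. Of 7, 5 were tested, 2 were called higher and 2 lower. The heavy neurofilament subunit *Nefh* fell by 4.44 on the log2 scale (from a mean of 22.0 to 1.41 CPM) and *Prph*, the filament gene of peripheral neurons, fell by 2.12. *Nes*, the progenitor filament gene, rose by 2.09 and *Sync*, a muscle filament protein gene, by 2.25. Of the nuclear lamins, *Lmnb1* fell by 1.09 and *Lmnb2* by 1.76, while *Lmna* rose by 0.96 (adjusted p = 0.0198 from edgeR).

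Neuron markers were called higher for 8 of 10 genes (1 of them, *Dcx*, passing the filter only through NPCs) and lower for 1, *Stmn2*, which encodes a neuronal microtubule regulator. Their sum was 292 to 403 CPM in ESCs, while in NPCs it was 383 and 1389 CPM in B/J and 1092 and 2238 CPM in J/B. The summed level of *Nefl*, *Nefm* and *Ina* in NPCs was 140.2, 562, 441 and 607 CPM in the same libraries, with the same order. In ESCs the summed level of these 3 genes was 144, 194, 35.5 and 248 CPM, and the order differed from that of the neuron markers (403, 334, 350.2 and 292 CPM), which were lowest where these 3 genes were highest. NPC B/J replicate 1 lay inside the ESC range in both measures. NPC B/J replicate 1 was at the same time the NPC library highest in keratins and lowest in *Vim* and in neural precursor markers (146 CPM against 300.5 to 614 CPM in the other NPC libraries). The part of neuron content in the neurofilament levels was not tested.

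**Figure D2:**
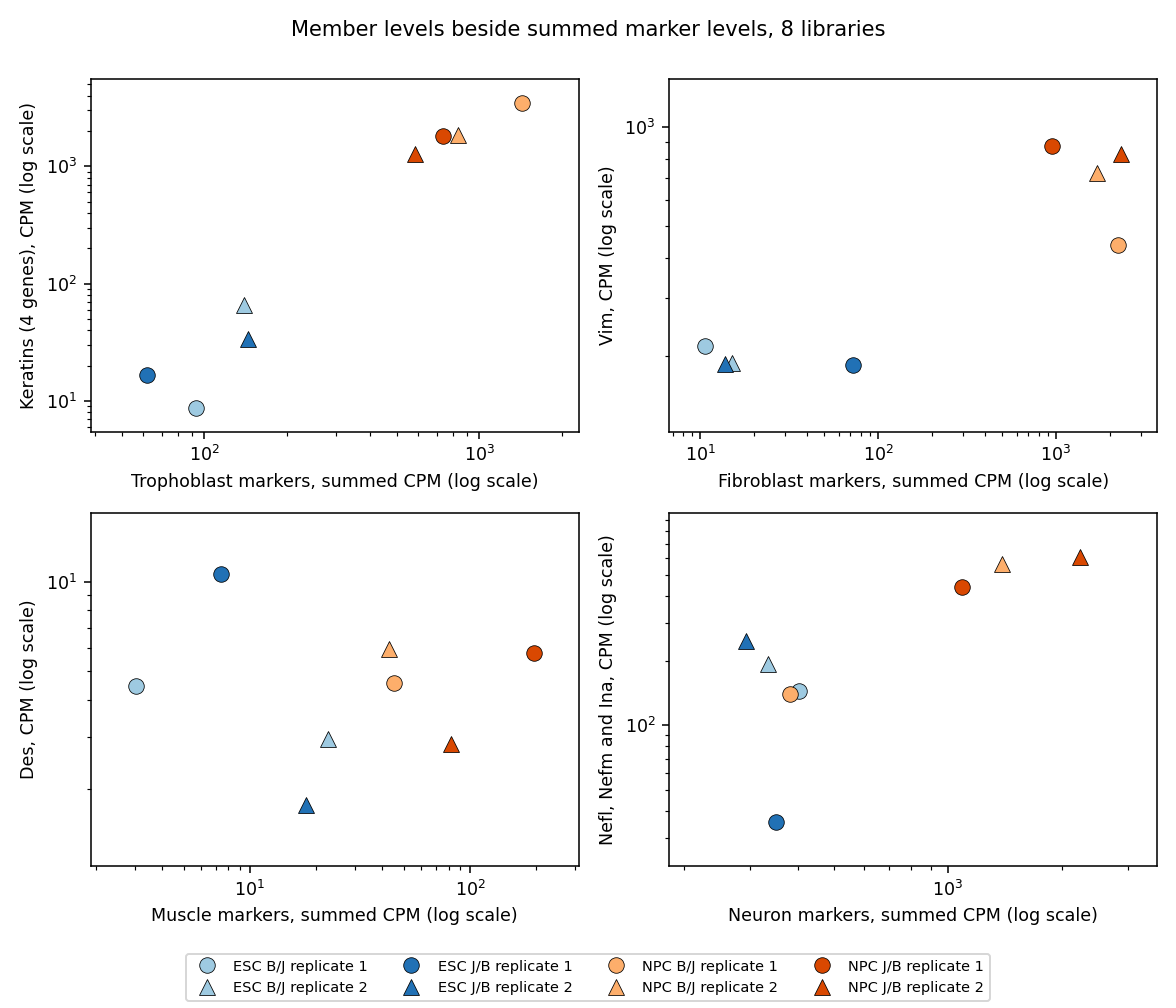
Each panel plots a member level (CPM, log scale) against the summed level of a marker list (CPM, log scale) in the 8 libraries, with ESCs in blue and NPCs in orange. In NPCs the keratin sum runs from 1276 to 3479 CPM and has the same order as the trophoblast sum, while *Des* stays between 1.77 and 10.6 CPM over all libraries as the muscle sum goes from 3.03 to 194 CPM.

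To compare the genes with each other, levels were divided by the length of the longest coding transcript and by the total of reads on genes (RPKM). The summed level of the 10 genes was 155 ± 34.4 RPKM in ESCs and 1653 ± 397 RPKM in NPCs (SD, n = 4 each). In ESCs the type III genes made up 61.3 ± 16.4% of it (47.9 to 81.7%), nearly all from *Vim*, with type IV at 27.9 ± 13.3% and keratins at 10.8 ± 7.04%. In NPCs keratins made up 69.9 ± 13.7%, type III genes 21.4 ± 8.87% and type IV genes 8.69 ± 5.12%. The keratin share was 3.42, 20.3, 8.77 and 10.7% in the ESC libraries and 89.1, 67.7, 66.1 and 56.6% in the NPC libraries, with no overlap. With the union of all exons as the length, which lowers the level of *Vim*, type III genes made up 44.6 ± 18.1% and type IV genes 39.8 ± 16.6% in ESCs, and keratins 15.6 ± 8.94% in ESCs and 78.3 ± 11.1% in NPCs. These shares are descriptions and were not tested.

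**Figure D3:**
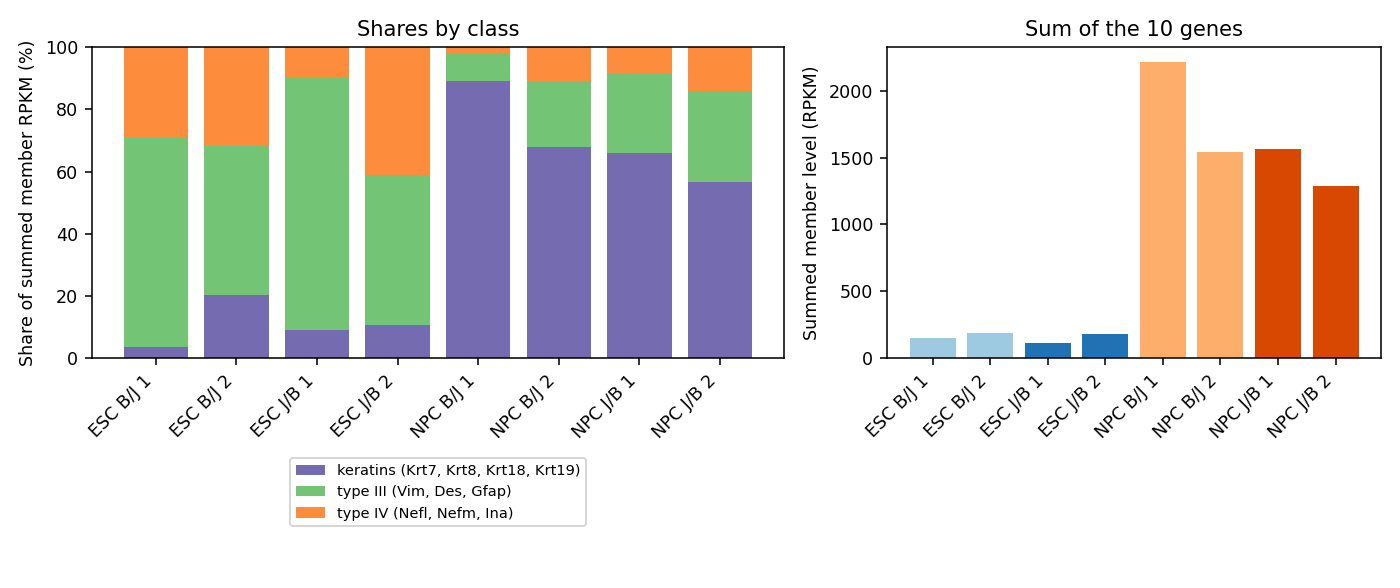
Left, share of the summed RPKM of the 10 genes (%) taken by each class in each library, and right, the sum itself (RPKM). Keratins take 3.42 to 20.3% of the sum in ESCs and 56.6 to 89.1% in NPCs.

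The order of the RPKM levels differed between the stages. In ESCs *Vim* (89.3 ± 5.98 RPKM) stood apart from *Ina* (25.9 ± 17.1), followed by *Nefl* (19.1 ± 9.84), *Krt8* (10.02 ± 8.38), *Krt18* (6.03 ± 4.03), *Krt19* (1.71 ± 1.83), *Des* (1.58 ± 1.25) and *Nefm* (1.44 ± 0.934), where no neighbours differed beyond their spread. *Gfap* (0.184 ± 0.0925) and *Krt7* (0.0333 ± 0.0195) were each apart at the bottom.

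In NPCs the order began with *Krt8* (487 ± 217 RPKM), *Krt18* (433 ± 177), *Vim* (327 ± 90.0) and *Krt19* (239.7 ± 129.9), whose neighbours did not differ beyond their spread. *Nefl* (69.9 ± 36.7), *Ina* (43.0 ± 24.3), *Krt7* (36.2 ± 18.9) and *Nefm* (15.8 ± 11.0) formed a second run of overlapping neighbours. *Des* (1.52 ± 0.454) and *Gfap* (0.116 ± 0.0340) were apart below them. With the union of all exons as the length, *Vim* came to 41.2 ± 2.76 RPKM in ESCs and no longer stood apart from *Ina* (25.5 ± 16.8), and to 150.8 RPKM in NPCs, where it ranked below *Krt19*. The annotated *Krt7* transcript is long (4094 bases against 1958 for *Krt8*), which lowers its level per length.

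The balance among the keratins and among the neuronal genes was compared on the RPKM scale, with no test. The ratio of type I to type II keratins was 0.800 ± 0.0651 in ESCs (0.714 to 0.865) and 1.29 ± 0.0904 in NPCs (1.16 to 1.37), with no overlap. The ratio of *Krt8* to *Krt18* was 1.54 ± 0.277 in ESCs and 1.12 ± 0.0943 in NPCs. *Krt19* stood at 0.222 ± 0.133 of *Krt18* in ESCs and 0.537 ± 0.0617 in NPCs, and *Krt7* at 0.00416 ± 0.00288 and 0.0741 ± 0.0155 of *Krt8*. Among the neuronal genes, *Ina* stood at 1.25 ± 0.349 of *Nefl* in ESCs and 0.627 ± 0.188 in NPCs, and *Nefm* at 0.100 ± 0.0812 and 0.240 ± 0.154 (all SD, n = 4). The *Ina* ranges did not overlap, and the *Nefm* ranges did.

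Each cross was then compared on its own. In B/J, 6 members, *Krt7* included, were called higher and 0 lower, where 30.1% of all genes were called higher and 25.6% lower. In J/B the counts were also 6 and 0, against 29.1% and 25.3% of all genes. They were the same 6 genes as over both crosses, of which *Krt7* had passed the filter only through NPCs. No member was lower at an unadjusted p below 0.05, and DESeq2 and limma-voom called 0 members lower in either cross. In J/B, *Nefl* was called higher by DESeq2 (1.72, adjusted p = 0.0363) and with a replicate block (2.07, adjusted p = 0.0257), but not with a block within each stage (2.01, adjusted p = 0.0661). The log2 fold changes in B/J and J/B were 10.14 and 8.85 for *Krt7*, 5.18 and 5.10 for *Krt8*, 5.90 and 5.42 for *Krt18*, and 6.74 and 6.55 for *Krt19*. For *Vim* they were 1.04 and 1.69, and for *Nefm* 2.37 and 3.21. Some depended on a single library in size or call. In B/J without ESC replicate 2, *Krt7*, *Krt8*, *Krt18* and *Krt19* came to 11.84, 7.24, 7.58 and 9.95, and without ESC replicate 1 to 9.39, 4.36, 5.15 and 5.82. *Krt19* was 6.08 in B/J without NPC replicate 1, and 5.87 and 8.07 in J/B without ESC replicates 1 and 2.

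*Vim* was no longer called in B/J without ESC replicate 2 (0.92, adjusted p = 0.0585 from edgeR) or NPC replicate 2 (0.66, adjusted p = 0.0503). *Nefm* in B/J was not called without ESC replicate 1 (2.30, adjusted p = 0.0514 from edgeR), and it was 1.64 without NPC replicate 2. In J/B without ESC replicate 2, *Nefm* came to 4.03, *Nefl* (3.36, adjusted p = 0.0189) and *Ina* (3.15, adjusted p = 0.0173) were called higher, and *Des* was called lower (-1.81, adjusted p = 0.0350). Each omission within a cross leaves a single library in the group it was taken from, ESC J/B replicate 1 in the last case. The p-values of these fits therefore rest on the spread within the other groups.

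**Figure D4:**
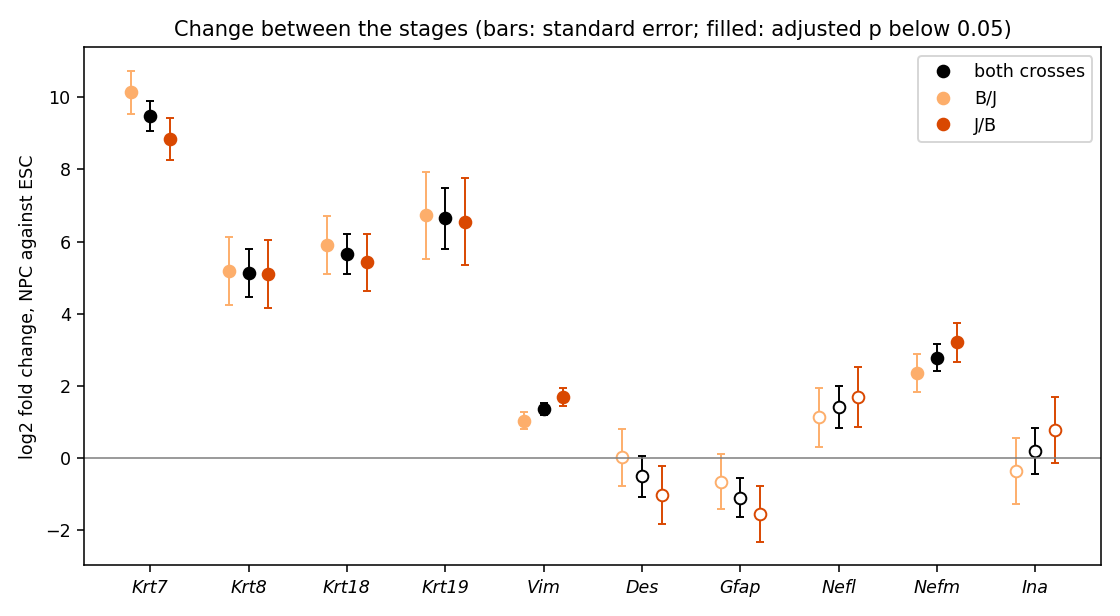
Log2 fold change of NPCs against ESCs for each gene, over both crosses (black) and within B/J and J/B (light and dark orange), with bars for the standard error and filled points for an adjusted p below 0.05 from edgeR. *Krt8*, *Krt18* and *Krt19* lie between 5.10 and 6.74 and are filled in every comparison. *Krt7* passed the filter only through NPCs. *Des*, *Gfap*, *Nefl* and *Ina* are open in every comparison.

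The difference between the crosses in the change from ESCs to NPCs was not called for any member by edgeR, with 0 of 10 at an unadjusted p below 0.05 as well. Over all genes 0% were called, 573 had an unadjusted p below 0.05, DESeq2 called 11 and limma-voom 0. The standard errors of this difference were large, at 1.13 for *Krt8* (difference J/B minus B/J -0.07), 1.14 for *Nefl* (0.57) and 0.336 for *Vim* (0.65). With each library left out in turn, the difference ran from -2.13 (without ESC B/J replicate 2) to 0.75 (without ESC B/J replicate 1) for *Krt8* and from -0.18 (without ESC J/B replicate 1) to 2.22 (without ESC J/B replicate 2) for *Nefl*, so neither sign was stable. J/B against B/J in ESCs likewise gave 0 calls among the members and 0% of all genes, with 0 members and 346 genes at an unadjusted p below 0.05, 10 calls from DESeq2 and 0 from limma-voom.

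In NPCs no member was called between the crosses either, while 0.0061% of all genes were, which is 1 gene, *Firre*, a long noncoding RNA gene of the X chromosome named here after its value was seen. At an unadjusted p below 0.05 there were 1050 genes, and DESeq2 called 70 genes and limma-voom 1. With edgeR the count was 0 with library totals, housekeeping scaling, the replicate block, a fit to the 4 NPC libraries alone and 6 of the 8 omissions of a single library. The 2 members with an unadjusted p below 0.05 were *Nefm* and *Krt7*. *Nefm* was higher in both J/B NPC libraries than in both B/J NPC libraries, by 1.87 on the log2 scale in edgeR's fit (standard error 0.504, adjusted p = 0.734). This difference was 2.58 without NPC B/J replicate 2 and 1.37 without NPC B/J replicate 1. *Krt7* was lower in both J/B NPC libraries, at -1.15 on the log2 scale in edgeR's fit (standard error 0.362, adjusted p = 0.755), and at -1.54 and -0.65 with these same libraries left out in turn. Both failed the correction over all genes.

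The spread between the libraries of a group was large for several members. On TMM-normalized CPM, *Krt8*, *Krt18* and *Krt19* were higher in replicate 2 of both ESC groups and lower in replicate 2 of both NPC groups. For *Krt8*, the log2 ratio of replicate 2 to replicate 1 was 2.88 in B/J and 0.95 in J/B ESCs, and -1.02 in B/J and -0.67 in J/B NPCs. For *Krt19* it was 4.15, 2.18, -1.13 and -0.39 in the same order. *Nefl* and *Ina* were higher in replicate 2 of all 4 groups, most of all in J/B ESCs (2.39 and 3.21) and in B/J NPCs (2.18 and 1.67). *Vim* differed little between the ESC replicates (-0.24 in B/J and -0.08 in J/B) and most in B/J NPCs (0.68).

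**Figure D5:**
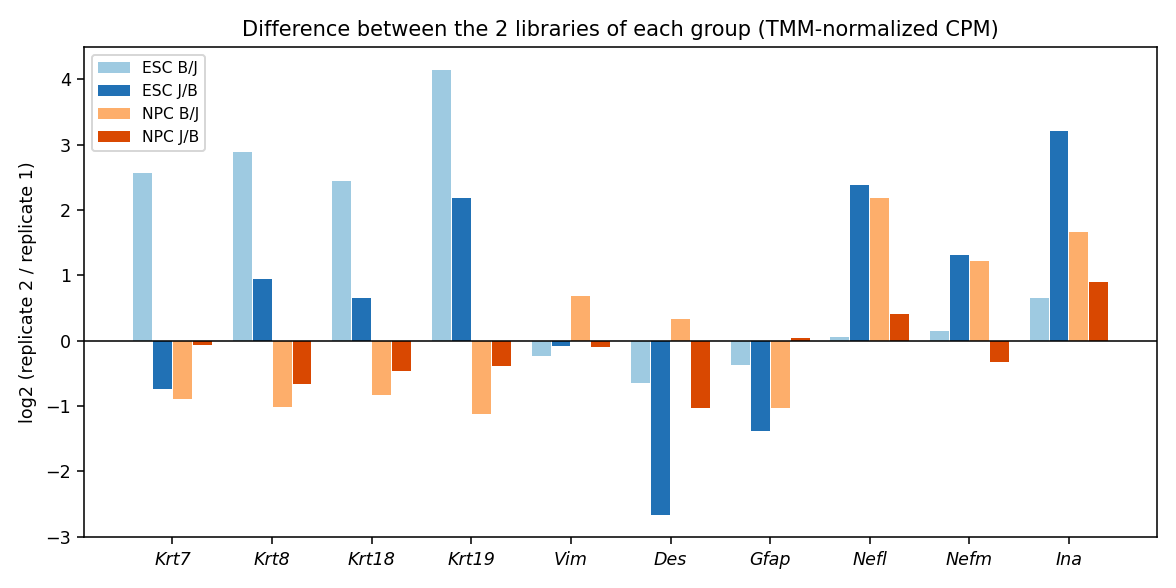
Log2 ratio of replicate 2 to replicate 1 for each gene in the 4 groups, on TMM-normalized CPM. *Krt8*, *Krt18* and *Krt19* are above 0 in both ESC groups and below 0 in both NPC groups, and *Ina* reaches 3.21 in J/B ESCs.

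Genes with the profile most like each member were sought over the 8 libraries, among 14091 genes with a mean of at least 1 CPM, as the smallest root mean square distance between centred log2(CPM + 0.5) profiles on the TMM scale. *Krt8* and *Krt18* were closer to each other (distance 0.270) than either was to any gene outside the members. For *Krt18* the nearest of those were *Dsc2* (0.274) and *Prss23* (0.44), and for *Krt8*, *Anxa1* (0.46) and *Dsc2* (0.47). *Krt7* was nearest to *Pcdh12* (0.19) and *Serpinb6b* (0.27), the latter from a family of close copies whose counts are less certain, and *Krt19* to *Flt1* (0.60) and *Plac8* (0.62). The ESC means of *Krt7*, *Pcdh12* and *Serpinb6b* were 0.136, 0.00943 and 0.129 CPM, all below the 0.5 CPM added before taking logs. Their small distances therefore rest little on differences within ESCs.

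For *Vim* the nearest genes were *Snn* (0.12) and *Lrp12* (0.14), and for *Des*, *Rbm44* (0.18) and *Fbxo6* (0.34). The neuronal members lay near *Crmp1* (0.38) and *Fam13c* (0.45) for *Nefl*, *Adamts20* (0.33) and *Mpped1* (0.35) for *Nefm*, and *Olig3* (0.39) and *Cend1* (0.43) for *Ina*. *Nefl* was at a distance of 0.62 from *Ina* and 1.11 from *Nefm*, so its nearest genes were not the other neurofilament genes. These distances describe 8 libraries that share the same 2 lines, and *Gfap* lay below 1 CPM and was left out.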

How the data were processed

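Poly(A) RNA was sequenced from ESCs and day 12 NPCs of both crosses, 2 libraries per group. The authors aligned paired reads with TopHat2 to mm39 with SNP positions masked, filtered them to proper pairs (minimum mapping quality 20), and deposited raw read counts per gene, both alleles together. The submitters' processing notes also name HTSeq, DESeq2 and edgeR, without a role or version. The libraries were made with either of 2 mRNA kits and run on either of 2 instruments, and the sources do not say which library had which. The 5 closing entries of each table were left out; reads on no gene were 5.76 to 10.9% and ambiguous reads at most 0.554% of a library.

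The deposited counts were fitted with edgeR 4.0.16 in R 4.3.3 (TMM, filterByExpr with a minimum count of 10, group means of all 8 libraries, robust quasi-likelihood F test), with the standard error taken as the log2 fold change over the root of F. Benjamini-Hochberg adjustment covered the 16399 genes tested, with a threshold of 0.05. The fit was tested on simulated data. Alternatives were RLE factors, library totals, housekeeping scaling, DESeq2 1.42.0, limma-voom (limma 3.58.1), no filter, keeping only genes averaging 1 CPM or more, a replicate block, only the 4 libraries compared, and each library left out. A block within each stage, the count of genes that reached the filter's cutoff in ESCs and the Ensembl canonical transcript length were chosen after seeing the data. Positions, lengths and exon overlaps are from GENCODE vM39 (GRCm39). The 10 members were always named, with at most the 3 largest changes in each direction per wider list and the 2 nearest genes per member by profile. Members and lists were chosen with earlier results of these data known. Exons on the opposite strand of other annotated genes also overlap *Vim* (586 bases), *Ina* (526), *Krt19* (329), *Des* (288), *Krt8* (101), *Krt7* (77) and *Nefm* (1117, besides *Nefl*).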

Additional observations from a re-analysis of the deposited data

Results flagged for a closer look

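In a group of 4 libraries, a highest or lowest library was singled out where its gap to the nearest other library, divided by the range of the group, was above Dixon's 95% critical value. Chance alone gives this in about 1 of 20 groups. Among the 10 members it was met 3 times, each time in ESCs and each time by the highest library. For *Vim* this was ESC B/J replicate 1 (215 CPM, gap over range 0.937), for *Gfap* ESC J/B replicate 1 (1.02 CPM, 0.843) and for *Nefm* ESC J/B replicate 2 (10.4 CPM, 0.893). The *Gfap* value rests on 23 counts, and the *Vim* value lies within a narrow range of 188 to 215 CPM.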

How the results depend on the processing

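Over both crosses, *Krt8*, *Krt18*, *Krt19*, *Vim* and *Nefm* were called higher in NPCs with RLE factors, library totals, housekeeping scaling, DESeq2, limma-voom, both other filters, both replicate blocks and each library left out. Their log2 fold changes ranged over 4.74 to 6.74, 5.29 to 6.90, 6.19 to 9.33, 1.13 to 2.01 and 2.42 to 3.41. That of *Krt7*, which passed the main filter only through NPCs, ranged over 9.12 to 10.35. *Nefl* (0.67 to 2.24, adjusted p 0.00741 to 0.273) was also called with library totals (1.88), housekeeping scaling (2.05) and DESeq2 (1.43). *Gfap* had no value when only genes averaging 1 CPM or more were kept. Genes called higher made up 54.0% of the calls with TMM, 70.1% with library totals and 75.0% with housekeeping scaling.

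Leaving out each library in turn, the members called lower in J/B numbered 0 to 1 (*Des*, without ESC J/B replicate 2), and the genes called in J/B numbered 5700 to 8475, the lowest without NPC J/B replicate 2. For J/B against B/J in NPCs the genes called numbered 0 to 1, against 1 with all libraries. That count was 0 with library totals, housekeeping scaling or only the 4 libraries compared, 5 without a filter and 70 with DESeq2. In ESCs the crosses gave 0 calls, 2 without a filter and 10 with DESeq2, and the interaction gave 0, or 11 with DESeq2. The cause of these differences was not tested.

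Replicate numbers are shared across the groups, but no label says that a number marks a batch. The deviations of same-numbered libraries correlated at 0.613 between the ESC groups, 0.507 between the NPC groups, and 0.0474 to 0.0919 between the stages. With a replicate block over all groups, *Nefl* over both crosses was called (1.39, adjusted p = 0.0207 from edgeR) and J/B against B/J in NPCs gave 0 genes. With a block within each stage *Nefl* was not called (1.34, adjusted p = 0.0947), and that comparison gave 4. In this last setting the keratin changes over both crosses were larger, at 6.74 for *Krt8* and 9.33 for *Krt19*. Low counts, 1 to 6 for *Krt7* in ESCs and 7 to 23 for *Gfap*, limit the precision of their changes, and intervals at this depth would cover counting error only.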
